A study of Homo sapiens with 6 samples.

Results

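The acyl-CoA dehydrogenases are mitochondrial and peroxisomal flavoenzymes that catalyse the opening step of fatty acid beta-oxidation and a matching step in the breakdown of branched-chain amino acids. Each enzyme takes a pair of electrons from an acyl-CoA onto its bound FAD, leaving a double bond. In mitochondria the electrons then pass through the electron transfer flavoprotein and its dehydrogenase to the respiratory chain. The members differ mainly in the acyl chain they accept. ACADSB, the short/branched chain member, oxidises the branched acyl-CoA made from isoleucine. Its relatives cover straight chains from short to very long (ACADS, ACADM, ACADL and ACADVL), the leucine and valine products (IVD and ACAD8), and a less studied group (ACAD9, ACAD10 and ACAD11).

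The 10 genes ACADSB, ACADS, ACADM, ACADL, ACADVL, ACAD8, ACAD9, ACAD10, ACAD11 and IVD were taken by symbol from the 60499 genes of the deposited tables, and all 10 matched an Ensembl gene ID. They were measured in H1, an established human embryonic stem cell line, by sequencing total RNA. The control cells grew for 4 days in wells coated with recombinant laminin-521 alone (LN-521), and the compared cells grew for the same time on laminin-521 with laminin-221 added (LN-521+LN-221, here also the mixed coating), in the same NutriStem medium with a daily change and with RNA taken at confluence. Laminins are basement membrane proteins that pluripotent cells attach to, and laminin-221 is a form found in cardiac muscle. Each coating had 3 wells of the same line, labelled as biological replicates, so the p-values below measure the spread between wells of 1 line. The family was assembled around ACADSB because ACADSB differed between the coatings in these libraries. That difference is therefore given as a description, and no test over the family supports it.

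Of the 10 genes, 9 passed the low-count filter and were tested. The test was edgeR's quasi-likelihood test on rounded estimated counts, adjusted by Benjamini-Hochberg over 17608 genes, with calls at an adjusted p under 0.05. Levels within a gene are given as CPM, counts relative to library size after TMM (trimmed mean of M-values) scaling, as mean ± SD of 3 wells. Levels between genes are compared only in TPM, which is corrected for transcript length. Fold changes divide the mixed coating by LN-521 and are given with their standard error (SE). Estimated counts summed to between 20606494 and 26836727 per library. All 8 pluripotency markers were expressed, with a summed level of 2449 to 2774 TPM on LN-521 and 2368 to 2554 TPM on the mixed coating. Among them POU5F1, NANOG and TDGF1 were called lower on the mixed coating, with log2 fold changes of -0.36, -0.73 and -0.65, and LIN28A higher, with 0.23. All 4 mesoderm, all 4 endoderm and both ectoderm markers stayed under 1 TPM in every library. Summed mesoderm markers lay at 0.22 to 0.53 TPM on LN-521 and at 0.54 to 1.01 TPM on the mixed coating, and of these 10 markers 1 passed the low-count filter and was not called. Fibroblast markers summed to 40.58 to 45.35 TPM and 39.55 to 46.27 TPM, nearly all of it COL1A1, with LUM at 0. Cardiomyocyte markers summed to at most 2.46 TPM with NPPA at 0, and hepatocyte markers to at most 2.3 TPM with TTR at 0. The part of the lower pluripotency markers in the values below was not tested. In bulk RNA, a change in the share of cells that express a gene and a change in RNA per cell cannot be told apart.

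ACADSB and the transcription factor gene IKZF5 start head to head on chromosome 10, and the stretch between their starts is shown. Both genes had higher CPM in every well of the mixed coating than in any well of LN-521. CPM did not overlap between the coatings for 19.9% of all genes tested. ACADSB was chosen for its difference, and IKZF5 was not called, with overlapping wells in TPM. ACADSB (ENSG00000196177) spans chr10:123009006-123058290 on the plus strand of GRCh38.p14 in RefSeq, and IKZF5 lies on the minus strand with its start 211 bp upstream. The stretch between the starts annotated in GENCODE release 29 covers chr10:123008818-123008978, with 161 bases, 65.8% GC and 9 CpG dinucleotides. The sequence is from the RefSeq promoter table (GRCh38.p14) and is written 5′ to 3′ on the plus strand, reading towards ACADSB, with capitals marking the GC box GGGCGG.
ACADSB-IKZF5 stretch: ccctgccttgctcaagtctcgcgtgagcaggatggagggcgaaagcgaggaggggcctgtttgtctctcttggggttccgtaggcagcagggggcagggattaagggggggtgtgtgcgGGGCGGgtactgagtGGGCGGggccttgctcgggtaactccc
The stretch of 161 bases held 2 GC boxes, both on the plus strand. The full RefSeq promoter window of ACADSB, at 300 bases, held 3, and 44.9% of the 34943 windows of that length held at least 1 on either strand. The letters CCAAT (in 34.6% of windows), TATAAA (11.6%), CACGTG (7.23%), CCGGAAG (10.2%) and GCGCATGC (3.02%) were searched on both strands and had no match in the stretch or in the 300-base window. A match of letters is a description and not a binding site. The 300-base window around the ACADSB start held 21 CpG dinucleotides, against a median of 14 over all windows.

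ACADSB was the family member selected for its difference. It had 649, 662 and 587 rounded counts on LN-521 and 954, 1087 and 1173 on the mixed coating. On the CPM scale its level was 28.3, 24.9 and 23.6 on LN-521 and 45.9, 48.7 and 49.5 on the mixed coating. The groups stood apart, with the lowest mixed-coating well far above the highest LN-521 well. The mean rose from 25.6 ± 2.43 to 48.1 ± 1.89 CPM, a log2 fold change of 0.91 ± 0.078 (SE), or 1.88-fold, with a 95% interval of 0.75 to 1.08 on the log2 scale. Its adjusted p was 4.38e-06 by edgeR's quasi-likelihood test, the rank of 6 by p among all genes tested, while its rank by absolute log2 fold change was 241.

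On the TPM scale ACADSB was less even within the groups. Its level was 8.15, 9.75 and 5.63 TPM on LN-521 and 14.0, 15.4 and 13.6 TPM on the mixed coating, with means of 7.84 ± 2.08 and 14.3 ± 0.970. The groups again did not overlap, but the spread on LN-521 was wider than in CPM. With limma on log2(TPM + 1) the log2 fold change was 0.82 and the adjusted p 0.175, so the call was lost in this fit. This fit changes both the scale and the test, and most calls over all genes were lost with it. It called 33 genes, and 25 of them were among the 446 called by edgeR. Over all 14 alternatives the adjusted p of ACADSB ran from 1.65e-26 to 0.261.

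The ratio of estimated count to TPM, which tracks the transcript length assumed for a gene in a library, was compared between the wells. Its part in the lost call was not tested. Relative to its own mean over the 6 libraries, this ratio for ACADSB was 1.12, 0.699 and 1.21 on LN-521 and 1.04, 0.954 and 1.06 on the mixed coating. The second LN-521 well was low and the other LN-521 wells were high. The largest value was 1.73 times the smallest, above the 90th percentile of 1.613 over 17545 genes, whose median was 1.128. GENCODE release 29 lists 4 ACADSB transcripts of 512 to 5859 bases, of which 2 are coding, at 1599 and 5859 bases. No exon of another gene overlaps those of ACADSB, and its counts were whole numbers in every library.

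**Figure D1:**
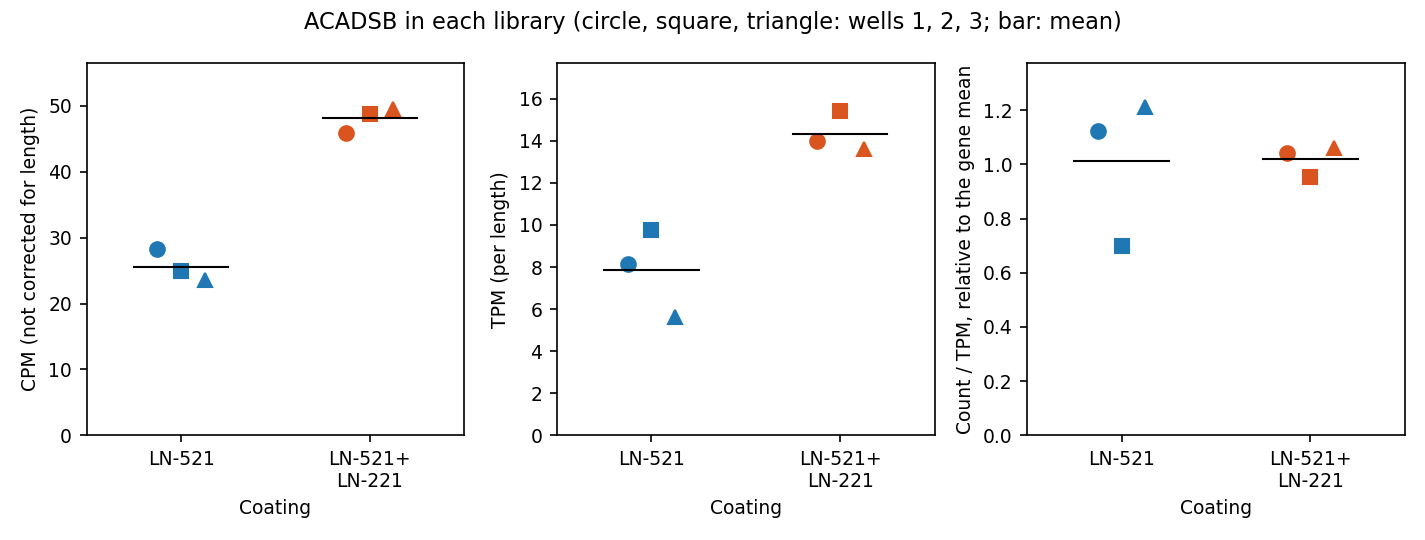
ACADSB in each library on 3 scales by coating: CPM, TPM, and count divided by TPM relative to the gene's mean; symbols are wells and bars are means. CPM separates the coatings with little spread (23.6 to 28.3 against 45.9 to 49.5), TPM separates them with more spread on LN-521 (5.63 to 9.75 against 13.6 to 15.4), and the ratio of count to TPM varies most among the LN-521 wells.

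Across the family, ACADSB was the single gene called (1 of 9 tested, higher on the mixed coating). Over all genes tested, 2.53% (446 genes) were called, 1.40% as higher and 1.14% as lower. Because ACADSB was chosen on this contrast, nothing is read from that count. The other 8 tested members were not called, and their log2 fold changes lay between -0.20 and 0.07. The median over the 9 tested members was -0.026, beside -0.0011 over all genes tested, with 3 members above 0 and 6 below. CPM of the coatings did not overlap for 2 of the 9, ACADSB and ACAD11, against 19.9% of all genes tested.

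**Figure D2:**
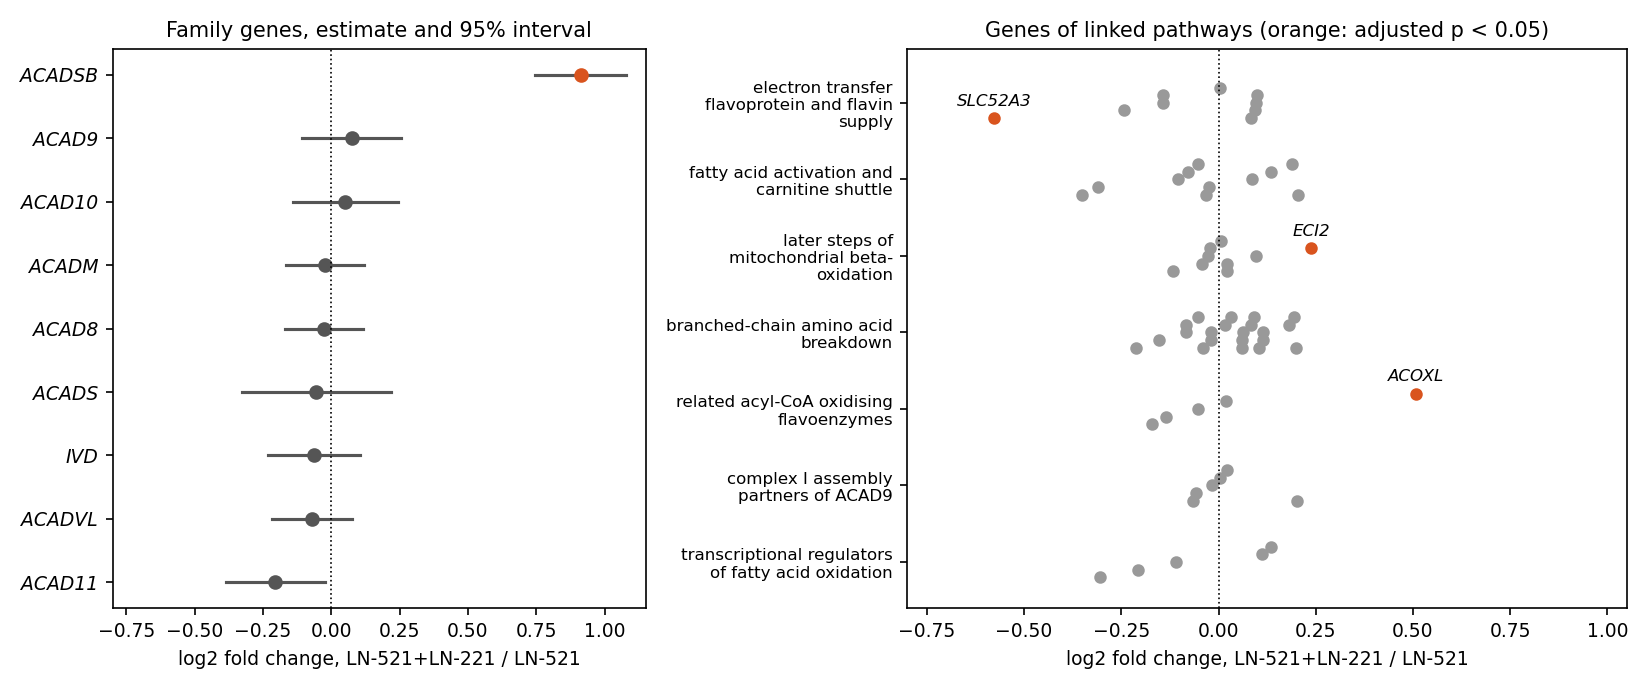
Left, log2 fold change of the 9 tested family genes with 95% intervals; right, log2 fold changes of the tested genes of 7 linked pathway lists, 1 point per gene, with called genes in orange and named. ACADSB at 0.91 stands apart from the other members, which lie between -0.20 and 0.07, and 3 of 66 tested pathway genes were called.

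ACADVL, the very long chain enzyme, was the most abundant member per length. Its level was 87.7, 96.0 and 91.8 TPM on LN-521 and 91.1, 94.3 and 94.9 TPM on the mixed coating, or 41.7% to 47.2% of the summed family TPM. The coatings overlapped, and its log2 fold change was -0.07 ± 0.069 (SE), adjusted p 0.718 by edgeR. On the TPM scale the sign turned, at 0.025 with limma. Exons of DLG4 overlap ACADVL on the opposite strand, and the strand setting of the counting is not given in the sources used here.

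ACADM, the medium chain enzyme, came next. Its level was 40.2, 27.7 and 32.5 TPM on LN-521 and 31.6, 31.1 and 32.7 TPM on the mixed coating, with the first LN-521 well the highest of all. In CPM the coatings were close, at 62.2 ± 4.73 and 61.2 ± 2.40, with a log2 fold change of -0.02 ± 0.068 (SE) and a 95% interval from -0.17 to 0.12. ACADM shares exonic sequence with RABGGTB on the same strand.

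ACADS, the short chain enzyme and the member nearest to ACADSB in substrate length, was expressed at a low level. Its level was 3.61, 3.27 and 2.78 TPM on LN-521 and 3.20, 3.43 and 2.84 TPM on the mixed coating. The wells of both coatings covered the same range. In CPM the means were 6.90 ± 0.638 and 6.64 ± 0.629, and the log2 fold change was -0.05 ± 0.129 (SE), adjusted p 0.895 by edgeR. The ratio of ACADSB to ACADS in TPM was higher in every mixed-coating well, at 2.26, 2.98 and 2.03 on LN-521 and 4.37, 4.50 and 4.79 on the mixed coating. This ratio restates the difference for which ACADSB was chosen.

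ACADL, the long chain enzyme, was the member left out by the filter. It had 9, 11 and 13 counts on LN-521 and 9, 4 and 8 on the mixed coating, and it stayed between 0.13 and 0.33 TPM. Without the filter its log2 fold change was -0.49 ± 0.532 (SE), adjusted p 0.722 by edgeR, so a small difference was out of reach at this depth.

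IVD and ACAD8 act on the leucine and valine products, the counterparts of the ACADSB step for isoleucine. IVD, isovaleryl-CoA dehydrogenase, lay at 20.5, 21.3 and 20.0 TPM on LN-521 and 21.0, 19.0 and 21.2 TPM on the mixed coating. ACAD8, isobutyryl-CoA dehydrogenase, lay at 15.8, 14.0 and 14.0 TPM on LN-521 and 15.2, 14.0 and 14.5 TPM on the mixed coating. Both genes were nearly level across all 6 wells. In CPM, IVD had means of 49.7 ± 5.23 and 47.6 ± 3.05 and a log2 fold change of -0.06 ± 0.079 (SE), adjusted p 0.785 by edgeR. ACAD8 had 35.4 ± 0.184 and 34.8 ± 0.976 CPM and a log2 fold change of -0.03 ± 0.068 (SE), adjusted p 0.908 by edgeR. Their 95% intervals ran from -0.23 to 0.10 and from -0.17 to 0.12. ACADSB was chosen for its difference, so its ratios to IVD and ACAD8, which were not called, restate that difference. ACADSB was 0.516, 0.696 and 0.401 times ACAD8 in TPM on LN-521 and 0.919, 1.10 and 0.939 times on the mixed coating. Against IVD the ratio was 0.397, 0.457 and 0.281 on LN-521 and 0.668, 0.814 and 0.642 on the mixed coating.

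ACAD9, which is needed to assemble respiratory complex I, and ACAD10, which carries an added kinase-like domain, lay next to ACADSB in the order of levels per length. ACAD9 lay at 11.4, 9.23 and 8.04 TPM on LN-521 and 11.2, 9.99 and 10.7 TPM on the mixed coating. ACAD10 lay at 11.9, 15.0 and 12.0 TPM on LN-521 and 14.2, 15.4 and 14.6 TPM on the mixed coating. The coatings overlapped for both genes. The log2 fold change was 0.07 ± 0.086 (SE), adjusted p 0.765, for ACAD9 and 0.05 ± 0.090 (SE), adjusted p 0.852, for ACAD10, both by edgeR. ACAD9 overlaps exons of KIAA1257 on the opposite strand, and ACAD10 overlaps those of AC002996.1 on the same strand.

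ACAD11, which also carries a kinase-like domain and has been placed in peroxisomes, was the member with the next largest fold change. Its CPM was 25.0, 22.82 and 27.2 on LN-521 and 21.5, 22.78 and 20.8 on the mixed coating. The coatings were separated by a margin of under 0.1 CPM, between the second well of each. The means were 25.0 ± 2.20 and 21.7 ± 0.998 CPM, and the log2 fold change of -0.20 ± 0.086 (SE) did not pass the threshold, with an adjusted p of 0.269 by edgeR and an unadjusted p of 0.0287. In TPM the wells overlapped, at 11.1, 7.01 and 8.82 on LN-521 and 6.67, 9.73 and 6.76 on the mixed coating. Its counts were not whole in 3 of the 6 libraries, so some of its reads had been divided with other loci, which were not identified, and its value is uncertain. ACKR4 overlaps ACAD11 exons on the opposite strand.

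Per length, the order of the mean levels was ACADVL, ACADM, IVD, ACAD8, ACAD10, ACADSB, ACAD9, ACAD11, ACADS and ACADL. This order averages both coatings, and the place of ACADSB differed between them. On LN-521 its mean of 7.84 TPM was below those of ACAD10 (12.9), ACAD9 (9.57) and ACAD11 (8.98). On the mixed coating its 14.3 TPM lay beside ACAD10 (14.7) and above ACAD9 (10.6) and ACAD11 (7.72). From ACAD8 to ACAD11 the ranges of neighbouring genes over the 6 libraries overlapped, so their order is not fixed by these data. All other neighbours in the order had ranges that did not overlap. The summed family level was 211, 204 and 196 TPM on LN-521 and 208, 212 and 212 TPM on the mixed coating, with overlapping wells and a log2 ratio of the means of 0.053. ACADSB made up 3.87%, 4.79% and 2.88% of this sum on LN-521 and 6.71%, 7.27% and 6.42% on the mixed coating. These shares also restate the difference for which ACADSB was chosen.

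**Figure D3:**
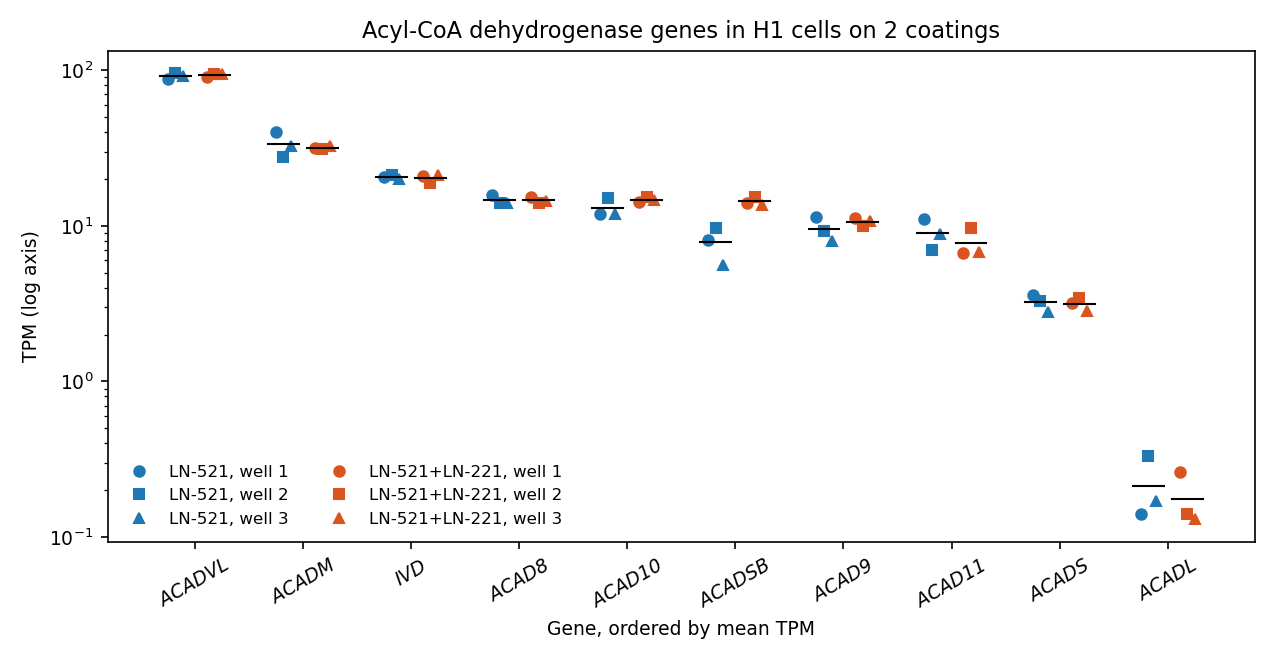
TPM (log axis) of the 10 genes in each library, ordered by mean level; colours are coatings, symbols are wells and bars are group means. ACADVL is highest at 87.7 to 96.0 TPM, ACADL is lowest at 0.13 to 0.33 TPM, and among the 10 genes only ACADSB shows separate groups of wells on this scale.

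The genes that work around the dehydrogenases were described from 7 lists of 68 genes, of which 66 were tested, 2 were called higher and 1 lower. That is 4.55% of those tested, beside 2.53% of all genes, with 34 genes above 0, 32 below and a median log2 fold change of 0.0033. The electron transfer flavoprotein and flavin supply list held 9 tested genes, with 0 higher and 1 lower and a median of 0.0035. ETFA and ETFB, the subunits that take the electrons from the dehydrogenases, had log2 fold changes of 0.10 ± 0.060 and 0.08 ± 0.093 (SE), and ETFDH, which passes them on to ubiquinone, had 0.09 ± 0.111. None of these 3 was called. The called gene was SLC52A3, a plasma membrane transporter of riboflavin, the vitamin from which FAD is made. Its CPM was 8.15, 8.61 and 9.15 on LN-521 and 5.78, 5.34 and 6.25 on the mixed coating, with no overlap. Its mean fell from 8.64 ± 0.503 to 5.79 ± 0.457 CPM, a log2 fold change of -0.58 ± 0.121 (SE), adjusted p 0.0130 by edgeR. The call was lost without LN-521 replicate 3 (adjusted p 0.0931) and without LN-521+LN-221 replicate 1 (0.0607) or 2 (0.112), and in TPM (0.325 with limma on log2(TPM + 1)), within a range of 0.00132 to 0.325 over its alternatives.

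The later steps of mitochondrial beta-oxidation also held 9 tested genes, with 1 higher and 0 lower and a median of 0.0069. The called gene was ECI2, an enoyl-CoA isomerase that shifts double bonds of unsaturated fatty acids into the position the pathway can use. Its CPM was 69.0, 71.2 and 70.2 on LN-521 and 79.5, 82.2 and 86.2 on the mixed coating, so every well on the mixed coating was above every well on LN-521. The mean rose from 70.1 ± 1.11 to 82.7 ± 3.39 CPM, a log2 fold change of 0.24 ± 0.059 (SE), adjusted p 0.0382 by edgeR. This call was lost without LN-521 replicate 3 (adjusted p 0.157), without LN-521+LN-221 replicate 1, 2 or 3 (0.0836, 0.193 and 0.252) and in TPM (0.470 with limma on log2(TPM + 1)), within a range of 0.0167 to 0.498 over its alternatives.

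Among 5 related acyl-CoA oxidising flavoenzymes, 1 was called higher and 0 lower, with a median of -0.053. The called gene was ACOXL, an acyl-CoA oxidase-like gene. Its CPM was 18.6, 16.5 and 14.1 on LN-521 and 21.7, 23.2 and 24.9 on the mixed coating, with no overlap. The mean rose from 16.4 ± 2.24 to 23.3 ± 1.58 CPM, a log2 fold change of 0.51 ± 0.101 (SE), adjusted p 0.00865 by edgeR. Without LN-521 replicate 3 (adjusted p 0.0836), without LN-521+LN-221 replicate 2 (0.0557) or 3 (0.0801), and in TPM (0.403 with limma on log2(TPM + 1)), it was not called, within a range of 1.78e-05 to 0.457 over its alternatives.

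The branched-chain amino acid breakdown list, which holds the steps before and after ACADSB, IVD and ACAD8, had 21 genes, all tested. By edgeR 0 were called and 4 had an unadjusted p under 0.05, as did 2561 of the 17608 genes tested, and DESeq2 also called 0. The median log2 fold change was 0.060, with 13 genes above 0 and 8 below. BCAT1, the cytosolic branched-chain aminotransferase, had 542.3, 442.5 and 457.1 CPM on LN-521 and 545.3, 559.7 and 544.2 on the mixed coating, so the first LN-521 well lay beside the mixed-coating wells. Its log2 fold change was 0.19 ± 0.065 (SE), adjusted p 0.155 by edgeR, and it was called when LN-521 replicate 1 was left out. BCAT1 was singled out after its values were seen.

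The remaining 3 lists had 0 calls by edgeR, with 1 gene each at an unadjusted p under 0.05, and 0 calls by DESeq2. Fatty acid activation and the carnitine shuttle had 11 of 12 genes tested and a median of -0.032. Its largest change was in ACSL1, a long-chain acyl-CoA synthetase, at 10.5 ± 1.22 and 8.20 ± 0.785 CPM and a log2 fold change of -0.35 ± 0.119 (SE), adjusted p 0.157 by edgeR, which passed the threshold when LN-521 replicate 2 was left out. The 6 complex I assembly partners of ACAD9 had a median of -0.0071, with the largest change in TMEM126B, an assembly factor, at 0.20 ± 0.082 (SE), adjusted p 0.247 by edgeR. The transcriptional regulators of fatty acid oxidation had 5 of 6 genes tested and a median of -0.11. Among them PPARGC1A, a coactivator of mitochondrial genes, had 6.50 ± 0.359 and 5.27 ± 0.862 CPM and a log2 fold change of -0.30 ± 0.141 (SE), adjusted p 0.331 by edgeR.

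The genes next to ACADSB were examined because IKZF5 shares its start region. IKZF5, which starts 0.211 kb from ACADSB on the opposite strand, is its nearest protein-coding neighbour on that side. Its CPM was 12.2, 10.8 and 13.0 on LN-521 and 15.0, 15.8 and 15.7 on the mixed coating, with no overlap. The mean was 12.0 ± 1.10 on LN-521 and 15.5 ± 0.463 on the mixed coating, a log2 fold change of 0.37 ± 0.097 (SE). Its adjusted p of 0.0514 by edgeR just missed the threshold, within a range of 0.0264 to 0.753 over its alternatives. In TPM the wells of IKZF5 overlapped, at 3.12, 2.39 and 3.11 on LN-521 and 3.99, 3.05 and 3.39 on the mixed coating. The nearest gene on the other side, the homeobox gene HMX3, begins 77.7 kb past the end of ACADSB. HMX3 had 5, 5 and 5 counts on LN-521 and 12, 8 and 14 on the mixed coating and did not pass the filter.

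Within 250 kb of ACADSB, a window set after the values were seen, RefSeq places 9 other protein-coding genes of the table. Of these 7 were tested, 7 of the 7 had a positive log2 fold change, 1 was called (2.53% over all genes) and 4 had CPM that did not overlap between the coatings (19.9% over all genes). Their median was 0.35. Over all genes tested, 49.7% had a positive log2 fold change. The called gene was HMX2, a homeobox gene whose start lies 139.1 kb from that of ACADSB and which was singled out after its values were seen. It had 15, 24 and 18 counts on LN-521 and 63, 60 and 53 on the mixed coating. That is 0.759 ± 0.128 and 2.65 ± 0.399 CPM, a low level on both coatings, with a log2 fold change of 1.79 ± 0.246 (SE), or 3.45-fold, adjusted p 3.28e-04 by edgeR, and it was called in all 14 alternatives run. BUB3, a mitotic checkpoint gene, was at 180.7 ± 2.62 and 201.2 ± 2.53 CPM, a log2 fold change of 0.16 ± 0.050 (SE) that did not pass the threshold, adjusted p 0.135 by edgeR. CUZD1, FAM24B, C10orf88 and PSTK had log2 fold changes of 0.35, 0.36, 0.16 and 0.13 and were not called, and the counts of the first 3 were not whole in any library. In every library the fractional counts of CUZD1 and FAM24B add to a whole number, as with 323.2 and 74.8 in the first LN-521 well. Reads were thus divided between CUZD1 and FAM24B, which are not separate measurements within the 7 of 7 or the median.

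The windows of the other 9 members held 76 tested genes in all. None of the 76 was called by edgeR, 9 had an unadjusted p under 0.05, 34 had a positive log2 fold change and the median was -0.017. Among these windows that of ACAD10 also had positive values throughout, in 6 of 6 tested genes, with a median of 0.038. Farther along chromosome 10, 12 of 17 tested genes (70.6%) between 250 kb and 2 Mb of ACADSB were positive with a median of 0.064 and 0 called, and beyond that 285 of 517 (55.1%) with a median of 0.013, 10 called higher and 5 lower. Whether the neighbours and ACADSB moved together for a shared reason was not tested.

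**Figure D4:**
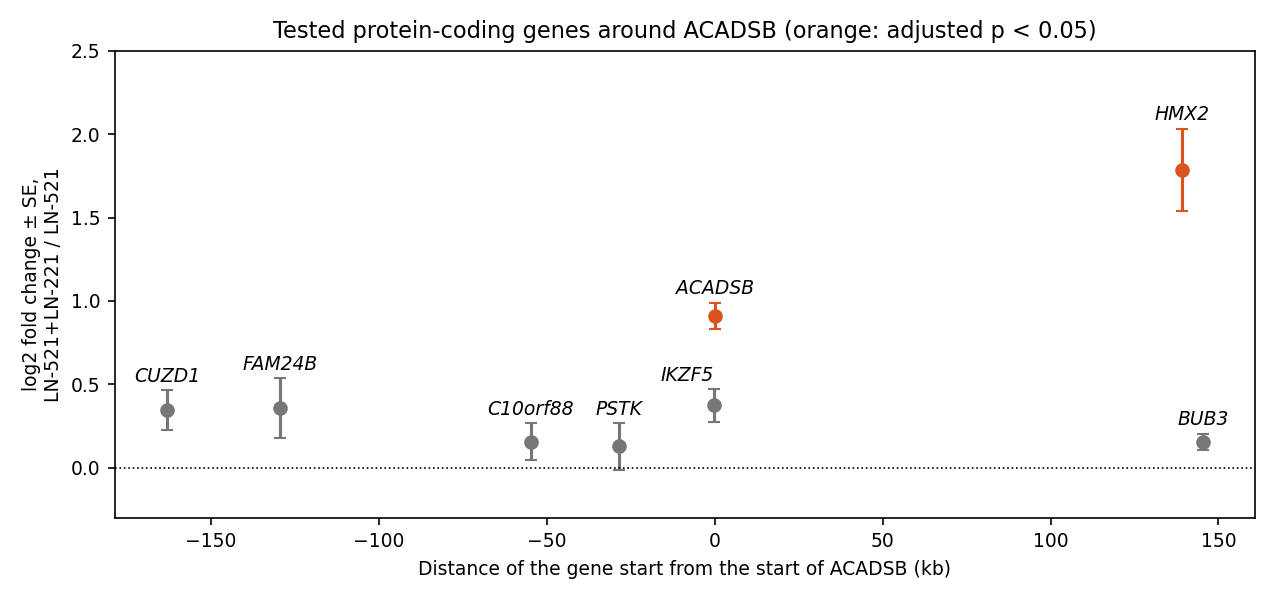
Log2 fold change ± SE of ACADSB and the 7 tested protein-coding genes within 250 kb, against the distance of each gene's start from the ACADSB start in kb; called genes are orange. All 8 points lie above 0, with HMX2 at 1.79, ACADSB at 0.91 and IKZF5 at 0.37, and CUZD1 and FAM24B are not separate measurements.

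The genes most like ACADSB were ranked by Pearson's r of log2 CPM over the 6 libraries, among 17374 tested genes with a symbol outside the family. Because the 6 libraries share the coating contrast, r mainly separates the coatings and 232 genes exceeded 0.95. The 5 highest were SOAT1 (r 0.998), ZNF512 (0.997), INSIG1 (0.997), KCNN2 (0.996) and FAT1 (0.996). SOAT1, which esterifies cholesterol, had 7.62, 6.69 and 5.78 CPM on LN-521 and 13.6, 14.4 and 15.0 on the mixed coating. Its log2 fold change was 1.10, adjusted p 1.83e-05 by edgeR. KCNN2, a calcium-activated potassium channel, was at 0.63 (adjusted p 1.16e-04) and FAT1, an atypical cadherin, at 0.47 (6.28e-05). INSIG1, a sterol sensor partner, and ZNF512, a zinc finger gene, had 0.22 and 0.16 and were not called, with adjusted p of 0.110 and 0.203 by edgeR. KCNN2 and FAT1 were not called in TPM, with adjusted p of 0.140 and 0.203 by limma on log2(TPM + 1).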

How the data were processed

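The authors deposited a table of estimated counts and a table of TPM for 60499 Ensembl gene IDs in 6 libraries. The submitters' processing notes name cutadapt, STAR 2.5.2b, RSEM 1.2.31 and hg38, while the annotation and the strand setting of the counting are not given in the sources used here. A stranded kit for total RNA was used with paired-end reading, per the labels' protocols, and the deposited sample sheet lists 1 sequencing batch. Between 6.08% and 6.67% of the deposited estimated counts per library are not whole (tolerance 1e-06), so some reads were divided between genes. The deposited TPM values keep no depth.

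Gene symbols were looked up in a name table that held 93.1% of the IDs, transcripts and exon overlaps from GENCODE release 29, and gene positions and the printed sequence from RefSeq (GRCh38.p14). Estimated counts were rounded, filtered with filterByExpr (minimum count 10), scaled by TMM and compared with edgeR 4.0.16 (R 4.3.3, quasi-likelihood, robust, coating as the single term), with p-values adjusted by Benjamini-Hochberg over the 17608 genes tested. The SE is the absolute log2 fold change divided by the square root of F. The scripts were tested on simulated data. Alternatives were other scalings and filters, DESeq2 1.42.0, limma 3.58.1 on TPM with a pseudocount of 1 or 0.1 before taking log2 (genes reaching 1 TPM in at least 3 libraries), a replicate block, and leaving out each library.

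The members and lists were chosen with earlier results of these data known. Named are all members, in each list every called gene and otherwise the gene with the largest absolute log2 fold change, the 5 genes most correlated with ACADSB, and its nearest protein-coding gene on each side. Exceptions are marked in the text, and a few genes the rule names or that overlap members are not reported here. No libraries agreed within sampling noise, as the smallest chi-square per degree of freedom between a pair was 2.82. The largest was 15.75 within LN-521 and 5.94 within the mixed coating. Pairs across the coatings ran from 7.758 to 17.07, so some LN-521 wells differed from each other as much as from mixed-coating wells.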

Additional observations from a re-analysis of the deposited data

How the results depend on the processing

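Over all genes, 446 were called, against 718 without a low-count filter, 33 and 16 with limma on log2(TPM + 1) and log2(TPM + 0.1), and 194 to 1179 when 1 library was left out, the highest without LN-521 replicate 1 and the lowest without LN-521+LN-221 replicate 3. ACADSB kept its direction throughout. It was called in every count-based alternative run, with a log2 fold change of 0.86 to 0.99 when 1 library was left out, and was not called with limma on TPM, at 0.82 (adjusted p 0.175) and 0.90 (0.261), so 0 members were called there, with 1 at an unadjusted p under 0.05 in each. The electron transfer, later beta-oxidation and related flavoenzyme lists went from 1 call to 0 with both TPM fits and ranged from 0 to 1 when a library was left out. The carnitine shuttle list ranged from 0 to 1 (ACSL1), and the branched-chain list from 0 to 1 (BCAT1).

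Replicate numbers did not pair the wells: deviations of same-numbered wells correlated at 0.0473, -0.0223 and 0.00902. A replicate block gave 646 calls over all genes, 442 of them shared with the 446 above, while ACADSB stayed at 0.91, 1 branched-chain gene (BCAT1) was called, IKZF5 passed with an adjusted p of 0.0293, and no other call of a member changed.

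Signs turned for members near 0: ACADVL to 0.025 with both TPM fits. With 1 library left out, ACADS ranged from -0.133 to 0.0042 and IVD from -0.140 to 0.012 (both highest without LN-521 replicate 2), ACADM from -0.065 to 0.039 (highest without LN-521 replicate 1) and ACAD10 from -0.020 (without LN-521 replicate 1) to 0.170. IKZF5 also passed without a filter (0.0299), with a filter of 1 CPM (0.0458) and without LN-521 replicate 1 (0.0264). For the changes listed, the cause was not tested. With 3 wells of 1 line per coating, small changes of the weakly expressed ACADS and ACADL are out of reach.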
